A study of Homo sapiens with 24 samples.

Results

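The S100 genes described here are S100A2, S100A3, S100A4, S100A6, S100A10, S100A11, S100A13, S100A14, S100A16 and S100P. They are 10 of the 18055 genes tested in HCT116 cells treated with DNMT1 inhibitors. Members were taken by gene symbol from the probe sets that carry a single symbol, and all 10 passed the filter on low values. S100A4 was chosen by its lower array values after treatment, so its differences between groups are given as a description with no test. The other 9 were listed with earlier results of these data known, and their calls are read as a description beside the share of all genes called. A further 11 S100-related genes on the array lie outside the set.

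S100 proteins are small calcium-binding proteins of the EF-hand superfamily, found in vertebrates. Most form dimers that open on binding calcium and expose a surface for partner proteins such as annexins, myosin and tropomyosin. Several are also secreted and act on cell-surface receptors such as RAGE. Most of their genes lie in a cluster on human chromosome 1, and several have been reported to change with DNA methylation of their promoters. S100A4, also called metastasin, binds nonmuscle myosin and has been widely studied in the spread of colorectal cancer.

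HCT116 is an established human colorectal carcinoma line, and per the labels these cells came from ATCC. All groups received the same volume of DMSO for 72 h, either alone or with a compound. DMSO alone had 4 arrays, and each of the 10 treated groups had 2. DAC was given at 5 µM and 120 nM, and Aza at 1500 nM and 150 nM. G668684, whose titles hold the word ester, was given at 7 µM and 150 nM. G669043, which the source names call a prodrug, was given at 1500 nM and 150 nM, the doses of Aza. G669071, whose titles hold the word phos, has doses of 63 µM and 6 µM in the titles but 120 nM and 6 nM in the source names, so these groups are called its higher and its lower dose. The labels do not say if replicates were separate cultures, so the spread behind each p-value is that of the arrays at hand and may be technical.

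RNA was measured on Affymetrix HG-U133 Plus 2.0 arrays, and every level below is the log2 of the authors' RMA intensity for 1 probe set. Levels of different S100 genes are not compared, since probe sets differ in brightness. For the same reason the marker levels below are only a rough guide. Array medians lay between 6.46 and 6.58 log2. Precision is limited by how many arrays each group has. The 95% interval of a difference from DMSO had a median half-width of 0.21 log2 over all genes. Among the intestinal epithelial markers, EPCAM (12.93), KRT8 (12.07), KRT18 (13.69), KRT19 (12.19) and CDH1 (10.30) had DMSO means of at least 8 log2. VIL1 (7.40), GPA33 (7.39), CDX1 (7.30), CDX2 (7.06), CDH17 (6.95), LGALS4 (6.78) and KRT20 (5.87) did not. Of the fibroblast, blood cell and keratinocyte markers, 1 of each list reached 8 in DMSO: COL1A1 (9.98), CD3E (8.15) and KRT10 (11.53). Others of these lists ran from 4.25 (LUM) to 7.63 (ACTA2) in DMSO. COL3A1 (4.80), PTPRC (4.39) and KRT14 (4.64) were low. DCN (7.37), THY1 (7.27), KRT5 (7.33) and ITGAM (6.98) were near the intestinal markers VIL1, CDX2 and CDH17. In this bulk RNA, fewer cells of a kind and less RNA per cell cannot be told apart.

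Of the 10 genes, 9 lie on chromosome 1 and S100P lies on chromosome 4. S100A4 has S100A5 and S100A3 as its protein-coding neighbours, and S100A3 is followed by S100A2. The promoters of S100A6, S100A4, S100A3 and S100A2 are shown because these neighbouring genes differed in direction and size after treatment. Each window runs from 250 bases before to 50 bases after the start in RefSeq (GRCh38.p14), on the minus strand, with CpG dinucleotides, the sites of DNA methylation, in capitals. The windows are at chr1:153535942-153536241 for S100A6, chr1:153545757-153546056 for S100A4, chr1:153549209-153549508 for S100A3 and chr1:153565795-153566094 for S100A2, the first of the 2 windows listed for that gene.
S100A6: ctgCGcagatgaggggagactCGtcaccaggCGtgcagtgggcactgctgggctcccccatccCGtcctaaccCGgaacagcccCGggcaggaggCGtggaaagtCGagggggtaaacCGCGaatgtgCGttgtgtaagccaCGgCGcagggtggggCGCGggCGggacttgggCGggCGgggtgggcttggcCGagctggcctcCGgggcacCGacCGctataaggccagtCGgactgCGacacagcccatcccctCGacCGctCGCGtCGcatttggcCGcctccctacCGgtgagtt
S100A4: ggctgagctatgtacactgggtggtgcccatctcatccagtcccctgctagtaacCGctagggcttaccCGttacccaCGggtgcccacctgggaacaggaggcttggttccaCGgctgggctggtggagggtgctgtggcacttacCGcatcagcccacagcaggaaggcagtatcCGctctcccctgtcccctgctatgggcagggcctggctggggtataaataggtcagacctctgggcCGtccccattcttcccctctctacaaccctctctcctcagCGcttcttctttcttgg
S100A3: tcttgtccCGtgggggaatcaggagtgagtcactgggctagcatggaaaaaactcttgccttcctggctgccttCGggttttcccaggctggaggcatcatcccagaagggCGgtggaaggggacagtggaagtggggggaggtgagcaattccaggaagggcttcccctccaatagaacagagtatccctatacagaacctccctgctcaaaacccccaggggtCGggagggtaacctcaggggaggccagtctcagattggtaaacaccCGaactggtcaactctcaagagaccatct
S100A2: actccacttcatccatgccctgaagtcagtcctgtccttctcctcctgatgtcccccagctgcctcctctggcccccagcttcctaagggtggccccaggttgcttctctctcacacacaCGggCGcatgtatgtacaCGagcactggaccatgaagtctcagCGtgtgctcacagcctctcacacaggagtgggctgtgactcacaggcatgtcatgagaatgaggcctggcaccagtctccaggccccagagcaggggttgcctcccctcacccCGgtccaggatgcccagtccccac
S100A6 had 31 CpGs in this window, S100A4 had 8, and S100A3 and S100A2 had 5 each. Over all 35116 RefSeq windows of the same length the median was 14, and 79.3% of windows held fewer CpGs than that of S100A6, 39.3% fewer than that of S100A4 and 29.6% fewer than those of S100A3 and S100A2. S100A10 had 32 CpGs and S100A11 had 22, whereas S100A14 and S100P had 5 each and the first window of S100A16 had 3. The AP-1 letters TGAGTCA, searched on both strands, were in the windows of S100A3 and S100A2 and in 4.95% of all windows. TATAAA was in 3 of the 14 windows of the 10 genes, those of S100A4, S100P and the second of S100A13, and in 11.5% of all windows, and the GC box GGGCGG was in 6 of the 14 and in 45.0% of all. These matches describe the letters only, and DNA methylation was not measured here.

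S100A4 had its lowest level with 1500 nM Aza. Its 4 DMSO arrays read 11.16, 11.32, 11.33 and 11.31 log2. Arrays with 1500 nM Aza read 9.61 and 9.38, below every other array of the series, and with 150 nM they read 11.09 and 11.17. Of these, the array at 11.17 lay just inside the range of DMSO. With 1500 nM G669043 they read 10.50 and 10.59, and with 150 nM 11.11 and 11.01, both pairs below all DMSO arrays. As mean intensity, S100A4 was at 29.1% of its DMSO value with 1500 nM Aza and at 60% with 1500 nM G669043, against 90.1% and 85.8% at 150 nM. The difference from DMSO was -1.78 log2 (SE 0.07) for 1500 nM Aza, 3.45-fold lower, and -0.73 (SE 0.07) for 1500 nM G669043.

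With DAC and with G668684, S100A4 was lower at the lower dose than at the higher one. DAC arrays read 11.31 and 11.34 at 5 µM but 10.71 and 10.84 at 120 nM. G668684 arrays read 11.36 and 11.37 at 7 µM, above every DMSO array, but 10.81 and 10.99 at 150 nM, below every DMSO array. The 5 µM DAC arrays overlapped the DMSO range, and the 120 nM arrays lay below it. The higher minus the lower dose was 0.55 (SE 0.08) for DAC and 0.47 (SE 0.08) for G668684, while it was -1.63 for Aza and -0.52 for G669043. G669071 arrays read 11.05 and 11.04 at the higher dose, below DMSO, and 11.21 and 11.26 at the lower dose, within its range.

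From the highest mean to the lowest, S100A4 ran through G668684 at 7 µM, DAC at 5 µM, DMSO, G669071 at its lower dose, Aza at 150 nM, G669043 at 150 nM, G669071 at its higher dose, G668684 at 150 nM, DAC at 120 nM, G669043 at 1500 nM and Aza at 1500 nM. Arrays of neighbouring groups in this order overlapped between DAC at 5 µM and DMSO, between DMSO and the lower dose of G669071, between both 150 nM groups of Aza and G669043, between G669043 at 150 nM and the higher dose of G669071, and between G668684 at 150 nM and DAC at 120 nM. The other neighbours stood apart, with G669043 and Aza at 1500 nM separated by 1.05 log2 (SE 0.08). S100A4 is read by a single probe set, which the array's naming marks as possibly binding several transcripts. The first DMSO array, at 11.16, stood apart from the other 3.

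**Figure D1:**
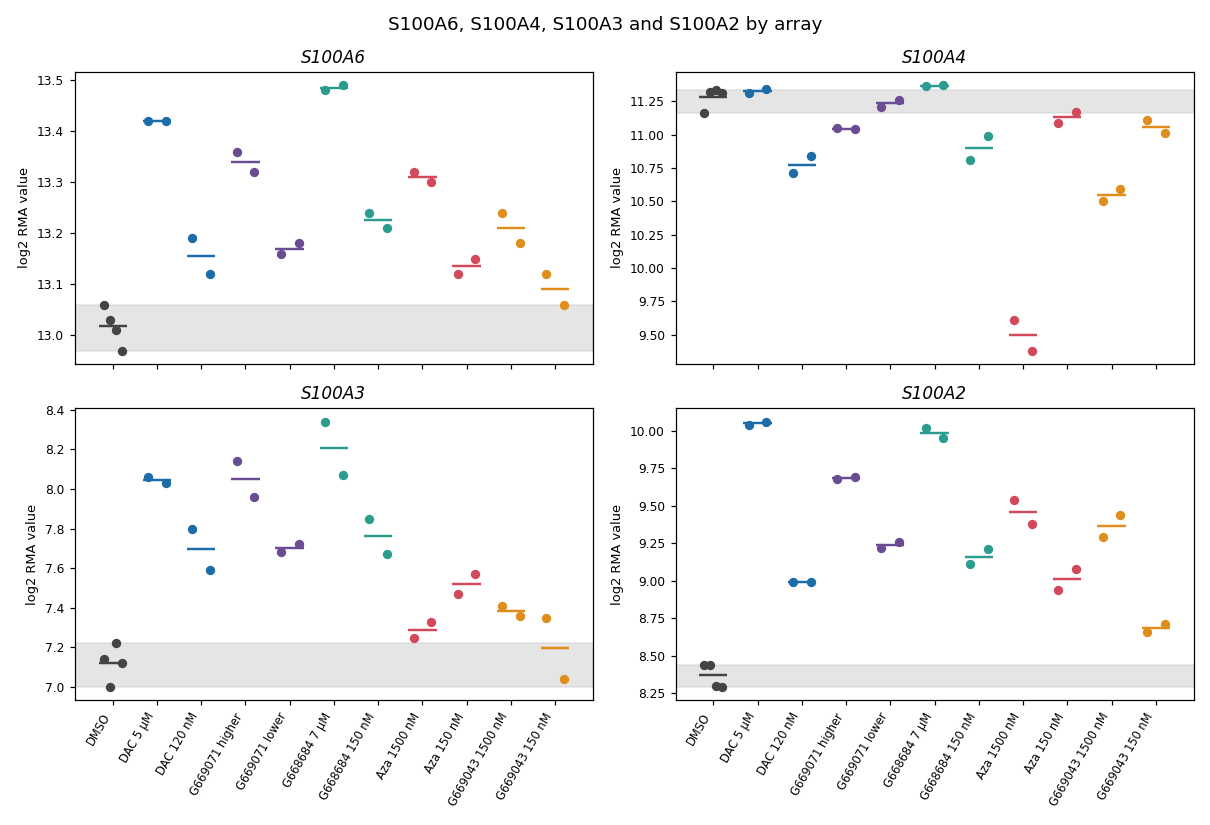
Log2 RMA intensity (y axis) of S100A6, S100A4, S100A3 and S100A2 on each of the 24 arrays, by group (x axis). Points are arrays, short lines are group means and the grey band is the range of the 4 DMSO arrays. S100A4 lies at 9.61 and 9.38 with 1500 nM Aza, where S100A2 lies above the DMSO band at 9.54 and 9.38.

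S100A2, a nuclear calcium-binding protein often lost in carcinomas, rose in all 10 treated groups against DMSO, and no treated array overlapped a DMSO array. The DMSO arrays read 8.44, 8.44, 8.30 and 8.29. With DAC they read 10.04 and 10.06 at 5 µM and 8.99 and 8.99 at 120 nM, and with G668684 10.02 and 9.95 at 7 µM and 9.11 and 9.21 at 150 nM. These higher doses gave the highest readings of the gene. G669071 arrays read 9.68 and 9.69 at the higher and 9.22 and 9.26 at the lower dose. Aza arrays read 9.54 and 9.38 at 1500 nM and 8.94 and 9.08 at 150 nM, and G669043 arrays 9.29 and 9.44 and then 8.66 and 8.71. Thus each compound's higher dose lay above its lower dose without overlap. In limma's fit with Benjamini-Hochberg adjustment the rise was 1.68 log2 (SE 0.07, adjusted p = 5.8e-13) with 5 µM DAC, 3.21-fold, and 1.09 (SE 0.07, adjusted p = 2.0e-09) with 1500 nM Aza. The smallest was 0.32 (SE 0.07, adjusted p = 0.045) with 150 nM G669043, a call that was lost without DMSO replicate 1 or 4 or either G669043 array (0.29 to 0.34, adjusted p 0.058 to 0.32).

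S100A3, best known from hair cuticle, rose with DAC, G669071 and G668684 at both doses, and among the Aza and G669043 groups only with 150 nM Aza. DMSO arrays read 7.14, 7.00, 7.22 and 7.12. With G668684 they read 8.34 and 8.07 at 7 µM and 7.85 and 7.67 at 150 nM, and with DAC 8.06 and 8.03 and then 7.80 and 7.59. None of these overlapped DMSO, nor did the G669071 arrays at 8.14, 7.96, 7.68 and 7.72. Aza arrays read 7.25 and 7.33 at 1500 nM and 7.47 and 7.57 at 150 nM, so the lower dose was the higher of the pair. G669043 arrays read 7.41 and 7.36 at 1500 nM and 7.35 and 7.04 at 150 nM, of which the last overlapped DMSO. The rise was 1.08 log2 (SE 0.10, adjusted p = 4.0e-08) with 7 µM G668684 and 0.93 with 5 µM DAC, against 0.17 (adjusted p = 0.29) with 1500 nM Aza. The call for 150 nM Aza (0.40, adjusted p = 0.048) was lost under 12 of 16 alternatives, among them leaving out DMSO replicate 1, 2 or 4 or either Aza array (0.35 to 0.45, adjusted p 0.065 to 0.48).

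S100A6, calcyclin, binds several annexins and is abundant in epithelial tumours. It rose in 8 of 10 groups by small amounts. DMSO arrays read 13.06, 13.03, 13.01 and 12.97, and the highest readings were 13.48 and 13.49 with 7 µM G668684 and 13.42 and 13.42 with 5 µM DAC. The Aza arrays read 13.32 and 13.30 at 1500 nM and 13.12 and 13.15 at 150 nM, also above DMSO. Of the treated groups, G669043 at 150 nM (13.12 and 13.06) alone overlapped the DMSO range. The largest rise was 0.47 log2 (SE 0.04, adjusted p = 5.6e-09). The second kept probe set of S100A6 had a DMSO mean of 5.52, against 13.02 for the one used, and was called in no group. With the mean of both, the calls for DAC at 120 nM, both doses of G669071, G668684 at 150 nM and G669043 at 1500 nM were lost (0.05 to 0.11). A mean with a dim and flat probe set shrinks any change, so this loss cannot decide if the calls hold. Leaving out the first array of 120 nM DAC (0.10, adjusted p = 0.16), the first of 1500 nM G669043 (0.16, adjusted p = 0.063) or either of the lower G669071 dose (0.14 and 0.16) also ended the call of that group.

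**Figure D2:**
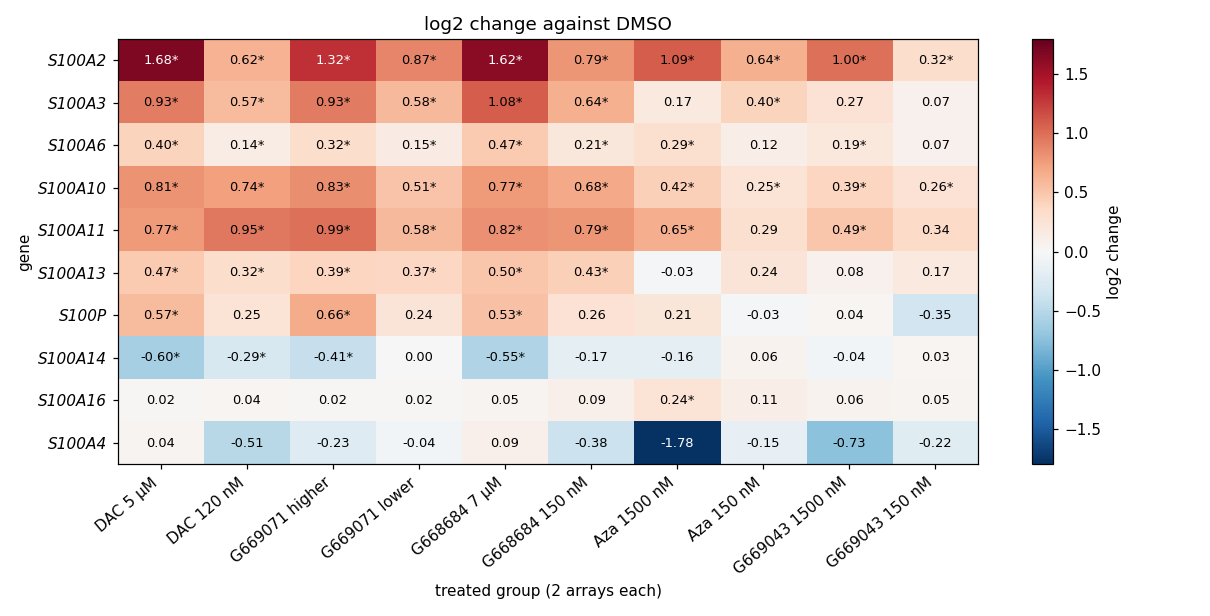
Heat map of the log2 change against DMSO (colour and printed number) for the 10 S100 genes (rows) in the 10 treated groups (columns), with a star where limma's adjusted p was under 0.05. S100A4 has no stars because it was not tested. S100A2 and S100A10 are starred in all 10 columns, S100A14 is lower in 4, and S100A4 is at -1.78 with 1500 nM Aza.

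S100A10 and S100A11, neighbours of each other on chromosome 1, rose with every compound. S100A10, also called p11, pairs with annexin A2 at the cell membrane and binds plasminogen. S100A11 partners annexin A1 and annexin A2. DMSO arrays of S100A10 read 12.59, 12.62, 12.83 and 12.85. The treated arrays lay between 12.94, with 150 nM Aza, and 13.56, with the higher dose of G669071, all above DMSO. S100A10 rose by 0.83 log2 (SE 0.06, adjusted p = 9.0e-10) with that dose, by 0.81 with 5 µM DAC and by 0.74 with 120 nM DAC. The second kept probe set of S100A10 had a DMSO mean of 4.93, against 12.72 for the one used, and was called in no group. With the mean of both, these rises were 0.43, 0.41 and 0.45 in the same order. The calls for the lower dose of G669071 (0.16, adjusted p = 0.073), 1500 nM G669043 (0.13, adjusted p = 0.19), 150 nM Aza and 150 nM G669043 were lost. Here too the mean shrinks any change, so these losses cannot decide if the calls hold. With 1500 nM Aza S100A10 rose by 0.42 (adjusted p = 3.3e-05) and with 150 nM by 0.25 (adjusted p = 0.033). The call for 150 nM Aza was lost without DMSO replicate 1 or 2 or either Aza array (0.20 to 0.28). That for 150 nM G669043 (0.26, adjusted p = 0.041) was lost without the same DMSO arrays or either G669043 array (0.22 to 0.27).

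DMSO arrays of S100A11 read 10.22, 10.09, 10.45 and 10.43, and all treated arrays lay above them, from 10.58 with both 150 nM Aza and 150 nM G669043 to 11.34 with the higher dose of G669071. S100A11 rose by 0.99 log2 (SE 0.08, adjusted p = 1.3e-08) with that dose. The DAC arrays read 11.10 and 11.03 at 5 µM and 11.17 and 11.33 at 120 nM, so the lower dose was at least as high. With 150 nM Aza (0.29, adjusted p = 0.09) and 150 nM G669043 (0.34, adjusted p = 0.054) it did not pass the test. Both passed without DMSO replicate 3 (0.34, adjusted p = 0.034, and 0.39, adjusted p = 0.014), and the second also without DMSO replicate 4 (0.39, adjusted p = 0.039).

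The DMSO arrays fell into 2 pairs, and this touches the comparisons of these 2 genes. Over the 18055 genes tested, replicates 1 and 2 correlated at r = 0.9967 and replicates 3 and 4 at 0.9969, against 0.9904 to 0.9912 between the pairs. The 2 arrays of 120 nM DAC also correlated at 0.9904, and those of the other treated groups at 0.9949 to 0.9981. S100A10 and S100A11 were higher in replicates 3 and 4, by 0.23 and 0.28 log2, while S100A2, S100A6, S100A16 and S100P were higher in replicates 1 and 2. The gap between the 3′ and 5′ probe sets of ACTB, a sign of RNA length, was -0.03 and 0.00 in the first DMSO pair but 0.24 and 0.15 in the second. In treated arrays it ran from -0.07, in the first with 150 nM G668684, to 0.34, in the second with 1500 nM G669043, whose first read 0.07. The part of this gap in these results was not tested. Against replicates 1 and 2 alone, S100A11 was called with 150 nM Aza (0.43, adjusted p = 0.0014) and 150 nM G669043 (0.48, adjusted p = 0.00054). Against replicates 3 and 4 alone, the S100A10 difference with 150 nM G669043 was 0.14 (adjusted p = 0.076).

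S100A13, S100A14 and S100A16 behaved differently from one another. S100A13, which takes part in the release of FGF1 from cells, rose with DAC, G669071 and G668684 at both doses. Its DMSO arrays read 10.93, 11.20, 11.02 and 10.98, and the arrays of those 6 groups lay between 11.28 and 11.57. The rise was 0.50 log2 (SE 0.06, adjusted p = 3.5e-06) with 7 µM G668684 and 0.47 with 5 µM DAC. With the mean of both kept probe sets of S100A13, the calls for 120 nM DAC (0.15, adjusted p = 0.11) and the higher dose of G669071 (0.15, adjusted p = 0.1) were lost. The second of these probe sets had a DMSO mean of 6.835, against 11.03, and was called in no group, so the mean shrinks any change. With 1500 nM Aza the arrays read 11.03 and 10.97, inside the DMSO range, for a difference of -0.03 (95% interval -0.17 to 0.10, adjusted p = 0.81). With 150 nM Aza they read 11.27 and 11.27 and the difference was 0.24 (adjusted p = 0.075). That call was gained without DMSO replicate 2, the highest of the 4 (0.29, adjusted p = 0.0063).

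S100A14, an epithelial member that lies next to S100A13, fell in 4 groups. DMSO arrays read 10.28, 10.41, 10.28 and 10.22. With DAC they read 9.71 and 9.69 at 5 µM and 10.03 and 9.99 at 120 nM, and with G668684 9.75 and 9.75 at 7 µM and 10.13 and 10.13 at 150 nM. All of these lay below DMSO. It fell by 0.60 log2 (SE 0.06, adjusted p = 1.5e-07) with 5 µM DAC, by 0.55 with 7 µM G668684, by 0.41 with the higher dose of G669071 and by 0.29 with 120 nM DAC. With 1500 nM Aza (10.17 and 10.11) the difference was -0.16 (adjusted p = 0.083), and with 150 nM G668684 it was -0.17 (adjusted p = 0.056), which passed without DMSO replicate 4 (-0.19, adjusted p = 0.031). Against DMSO replicates 1 and 2 alone, S100A14 was called lower in both groups (-0.205, adjusted p = 0.038, and -0.215, adjusted p = 0.023). Against replicates 3 and 4 alone it was called in neither (-0.11, adjusted p = 0.18, and -0.12, adjusted p = 0.15). S100A16, which lies between S100A2 and S100A14, was called in 1 group. Its DMSO arrays read 11.91, 11.94, 11.80 and 11.68, and with 1500 nM Aza it read 12.05 and 12.10. That rise of 0.24 log2 (SE 0.06, adjusted p = 0.0093) was lost without the second Aza array (0.22, adjusted p = 0.12) and against DMSO replicates 1 and 2 alone (0.15, adjusted p = 0.069). Against replicates 3 and 4 alone, S100A16 was also called with 150 nM Aza (0.20, adjusted p = 0.035) and 150 nM G668684 (0.18, adjusted p = 0.021).

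S100P, a secreted ligand of RAGE found raised in many carcinomas, rose with the higher doses of DAC, G669071 and G668684. Its DMSO arrays read 6.67, 6.68, 6.27 and 6.33, a low level with a wide spread. Arrays read 7.12 and 6.99 with 5 µM DAC, 7.13 and 7.17 with the higher dose of G669071 and 6.82 and 7.21 with 7 µM G668684, all above DMSO. The rises were 0.57 (SE 0.13, adjusted p = 0.0014), 0.66 (adjusted p = 0.00036) and 0.53 log2 (adjusted p = 0.0026), and the last was lost without the second G668684 array (0.33, adjusted p = 0.13). With Aza the arrays read 6.68 and 6.72 at 1500 nM and 6.43 and 6.49 at 150 nM. With 150 nM G669043 they read 6.03 and 6.25, below all DMSO arrays, a difference of -0.35 (adjusted p = 0.17). Against DMSO replicates 1 and 2 alone it was -0.54 (adjusted p = 0.005). Against replicates 3 and 4 alone, S100P was also called higher with 1500 nM Aza, 120 nM DAC, 150 nM G668684 and the lower dose of G669071 (0.40 to 0.45).

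**Figure D3:**
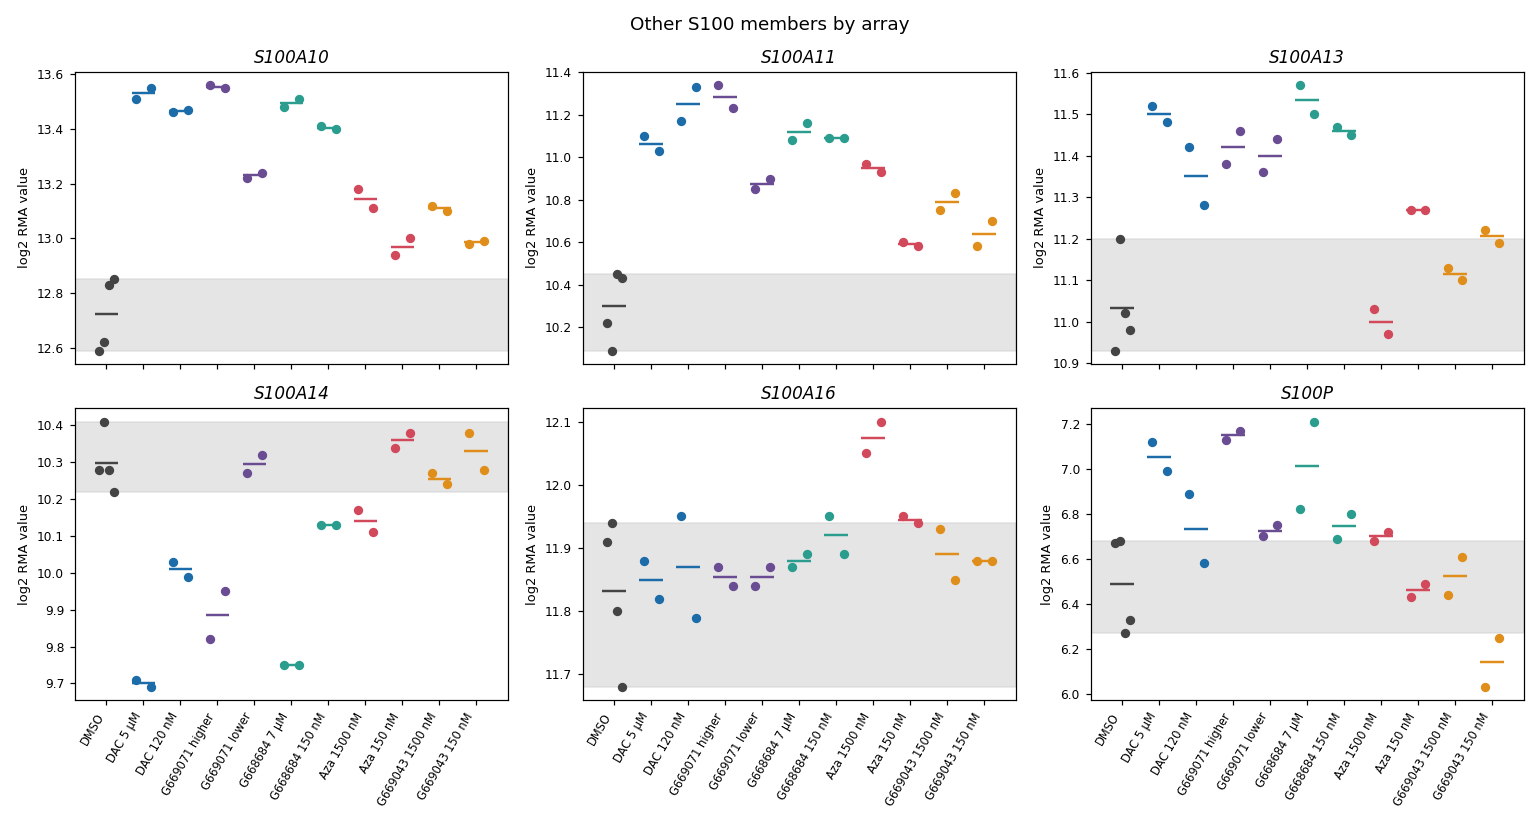
Log2 RMA intensity (y axis) of S100A10, S100A11, S100A13, S100A14, S100A16 and S100P on each array, by group (x axis). Points are arrays, short lines are group means and the grey band is the range of the 4 DMSO arrays. All treated arrays lie above the band for S100A10 and S100A11, while S100A14 falls below it with 5 µM DAC (9.71 and 9.69).

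Counted by comparison, more of the 9 tested genes rose than fell with every compound. With 5 µM DAC, 7 of 9 rose and 1 fell, where 18.0% of all genes tested rose and 14.2% fell, and with 120 nM DAC 6 rose and 1 fell (12.5% and 9.90% of all genes). The higher dose of G669071 raised 7 and lowered 1 (15.8% and 13.7%), and its lower dose raised 6 and lowered 0 (8.68% and 6.91%). With 7 µM G668684, 7 rose and 1 fell (17.5% and 14.7%), and with 150 nM 6 rose and 0 fell (10.7% and 10.4%). The 6 genes S100A2, S100A3, S100A6, S100A10, S100A11 and S100A13 made up the risers in all 6 of these groups, joined by S100P at the higher doses, and the gene that fell was S100A14. Aza raised 5 genes at 1500 nM (8.13%) and 3 at 150 nM (1.03%), and G669043 raised 4 at 1500 nM (5.88%) and 2 at 150 nM (0.709%). None of the 9 was called lower in these 4 groups with all DMSO arrays. Against DMSO replicates 1 and 2 alone, S100A14 was called lower with 1500 nM Aza and S100P with 150 nM G669043. With all DMSO arrays, 9.18%, 0.460%, 3.25% and 0.161% of all genes were called lower in the 4 groups. These shares of all genes depend on single arrays. For 150 nM G669043, 157 genes were called in all, but 49 without DMSO replicate 1, 961 without DMSO replicate 3, 7 or 3 without the first or second G669043 array and 5084 against DMSO replicates 1 and 2 alone. For 1500 nM G669043 the 1647 calls became 856 or 576 without the first or second of its arrays, and for 150 nM Aza the 269 became 56 or 63. The count for 150 nM Aza was 1 without DMSO replicate 1 or either Aza array, and that for 150 nM G669043 was 0 without DMSO replicate 1 or either G669043 array and 1 without DMSO replicate 2. The median change of the 9 was 0.57 log2 with 5 µM DAC and 0.24 with 1500 nM Aza, where the median of all genes was -0.04 and 0.03. All 10 comparisons share the DMSO arrays. Over them, 53 of 90 gene and group pairs were called higher and 4 lower. These pairs are the same 9 genes counted in 10 groups. In a single comparison 0.709% to 18.0% of all genes were called higher and 0.161% to 14.7% lower.

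The summed level of the 12 intestinal epithelial markers was 14.94 to 15.02 log2 in DMSO and 15.06 to 15.32 in the treated arrays. With 5 µM DAC 5 of the 12 rose (18.0% of all genes), with 1500 nM Aza 4 rose and 1 fell (8.13% and 9.18%), and with 150 nM G669043 0 changed. In the other groups the number that rose ran from 3 with 150 nM Aza (1.03% of all genes) to 6 with 7 µM G668684 (17.5%). In these groups 0 of the 12 fell, where 0.460% to 14.7% of all genes did. The 10 fibroblast markers summed to 10.80 to 11.05 in DMSO and 10.87 to 11.35 after treatment, the blood cell markers to 9.30 to 9.48 and 9.19 to 9.52, and the keratinocyte markers to 11.71 to 11.77 and 11.63 to 11.93. The part of these shifts in the S100 results was not tested.

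Between the doses of a compound, S100A2 was the gene called most often. It was higher at the higher dose of all 5 compounds, by 1.06 log2 (SE 0.08, adjusted p = 7.5e-08) for DAC, 0.83 for G668684, 0.68 for G669043, 0.45 for Aza and 0.44 for G669071. The Aza call was lost without the first 150 nM array (0.38, adjusted p = 0.061). S100A14 was lower at the higher dose of DAC (-0.31, adjusted p = 0.0043), G669071 (-0.41, adjusted p = 0.00057) and G668684 (-0.38, adjusted p = 0.00095). For DAC, 3 genes were higher (8.73% of all genes) and 1 lower (5.94%) at the higher dose, for G669071 4 and 1 (5.65% and 3.71%), and for G668684 3 and 1 (7.78% and 3.77%). For Aza, 3 were higher (2.41%) and 1, S100A13, lower (3.38%), and for G669043 1 was higher (1.69%). Without the first array of either G669071 dose, 3 of the 5 calls were made. Leaving out any 1 array of the 2 Aza groups took the 4 Aza calls to 0 or 1: S100A6 (0.16 to 0.19), S100A11 (0.34 to 0.38) and S100A13 (-0.30 to -0.24) lost theirs each time.

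Aza and G669043 were the only compounds given at the same labelled doses, so 2 pairs of groups were compared. At 1500 nM, 0 of the 9 genes differed by limma's adjusted p, where 2.13% of all genes did in either direction, and 2 of 9, S100A6 and S100A16, had an unadjusted p under 0.05, as did 16.2% of all genes. At 150 nM, 0 of 9 differed (0.0665% of all genes), and 3 of 9, S100A2, S100A3 and S100P, had an unadjusted p under 0.05, as did 10.2% of all genes. The farthest bound of a 95% interval over the 9 genes was 0.48 log2 at 1500 nM and 0.63 at 150 nM in size. Intervals of other genes reached less far, such as those of S100A10 (-0.17 to 0.10 at 1500 nM and -0.12 to 0.15 at 150 nM). Differences within the interval of each gene are not excluded. S100A4, not tested, read 10.50 and 10.59 with 1500 nM G669043 and 9.61 and 9.38 with 1500 nM Aza, 2.07-fold apart on the intensity scale, and differed by -0.07 at 150 nM (95% interval -0.24 to 0.10).

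The second probe sets of S100A6, S100A10 and S100A13 gave no call in any of the 17 comparisons, with changes against DMSO between -0.20 and 0.19 log2. They are dimmer than the ones used, and whether they read the same transcripts was not tested. At an unadjusted p under 0.05 they passed in 4 of 51 tests.

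Of 10 other S100-related genes tested, at most 1 was called higher and at most 1 lower in any group against DMSO. They include S100PBP, which binds S100P but is no S100 protein. With 5 µM DAC 0 of the 10 rose and 1 fell (18.0% and 14.2% of all genes). With 1500 nM Aza 1 rose and 1 fell (8.13% and 9.18%). S100A1 rose by 0.32 log2 (adjusted p = 0.023) with 1500 nM Aza, S100A7 by 0.29 (adjusted p = 0.049) with 120 nM DAC, and S100PBP fell by 0.28 (adjusted p = 0.0095) with 1500 nM Aza, by 0.22 with 5 µM DAC and by 0.22 with 7 µM G668684. The fused-type S100 genes, large structural proteins of skin, had 2 tested, of which 0 or 1 rose in a group. Of 26 neighbours in 1q21, 0 to 3 rose and 0 to 4 fell in a group. Of 25 other EF-hand genes, 0 to 9 rose and 0 to 5 fell. Over the 10 groups 0.709% to 18.0% of all genes rose and 0.161% to 14.7% fell. With 5 µM DAC, where 18.0% of all genes rose and 14.2% fell, 1 of the 2 fused-type genes rose and 0 fell. In that group 3 of the 26 neighbours rose and 2 fell, and 9 of the 25 EF-hand genes rose and 5 fell.

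Among 29 genes for S100 binding partners, 9 rose and 6 fell with 5 µM DAC (18.0% and 14.2% of all genes). With 120 nM DAC 9 rose and 1 fell (12.5% and 9.90%). The higher dose of G669071 gave 9 and 6 (15.8% and 13.7%), and the lower 7 and 2 (8.68% and 6.91%). G668684 gave 9 and 5 at 7 µM (17.5% and 14.7%) and 8 and 4 at 150 nM (10.7% and 10.4%). Aza gave 6 and 3 at 1500 nM (8.13% and 9.18%) and 2 and 0 at 150 nM (1.03% and 0.460%). G669043 gave 6 and 2 at 1500 nM (5.88% and 3.25%) and 1 and 0 at 150 nM (0.709% and 0.161%). With 5 µM DAC the largest changes were in MDM2, the ubiquitin ligase that several S100 proteins bind (1.53 log2, SE 0.22, adjusted p = 1.3e-05), PLAT, the tissue plasminogen activator (1.51, SE 0.12), the cation channel TRPM4 (0.77) and tropomyosin gene TPM1 (0.60). Under 1500 nM Aza the largest was a fall of SYT1, a synaptotagmin, by 1.44 log2 (SE 0.11, adjusted p = 2.0e-08), then MDM2 (0.85), PPFIBP1, the liprin beta 1 gene that S100A4 binds (-0.52), and TRPV6 (0.33). SYT1 also fell with 1500 nM G669043, by 0.83. Annexin gene ANXA5 rose with 150 nM Aza (0.36, adjusted p = 0.0028) and 150 nM G669043 (0.32, adjusted p = 0.022). ANXA2, partner of S100A10 and named after its values were seen, had a DMSO mean of 14.09 and rose by 0.22 log2 (adjusted p = 3.7e-05) with 5 µM DAC, against a difference of 0.10 (adjusted p = 0.06) with 1500 nM Aza.

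Of 10 receptor genes, SDC4, a cell-surface heparan sulfate proteoglycan, rose in all 10 groups, from 0.27 log2 (adjusted p = 0.0018) with the lower dose of G669071 to 0.78 (SE 0.05, adjusted p = 9.3e-10) with 7 µM G668684, and by 0.70 with 1500 nM Aza. BSG, basigin, rose by 0.43 with 120 nM DAC (adjusted p = 0.0052) and by 0.33 with the lower dose of G669071 (adjusted p = 0.042). No other receptor gene was called against DMSO, AGER, the gene of RAGE, included. In a list of 12 genes reported as regulators of S100A4, 0 to 2 rose and 0 to 5 fell in a group. At 1500 nM Aza, where S100A4 was lowest, 1 rose and 4 fell, against 8.13% and 9.18% of all genes. TWIST1 (0.61, adjusted p = 0.0026), MYB (-0.60, adjusted p = 0.00018) and TCF7L2 (-0.51, adjusted p = 0.0016) were among these and are named after their values were seen. With 5 µM DAC 2 of the 12 rose and 3 fell (18.0% and 14.2% of all genes). TWIST1 changed there by 1.18 log2 and MYB by -1.26. The part of these regulators in the S100A4 levels was not tested. In a list of 19 mesenchymal and epithelial genes, 0 to 11 rose and 0 to 3 fell, with 10 and 2 at 5 µM DAC (18.0% and 14.2% of all genes).

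The genes whose 11 group means were most like those of S100A4, among 1455 genes with an SD of at least 0.3 log2, were SELENOP (Pearson r = 0.931), SMIM14 (0.918), SAT1 (0.908), CREBZF (0.884) and UTRN (0.881). SELENOP encodes a secreted selenoprotein, SAT1 an enzyme of polyamine breakdown and UTRN utrophin. Without the 1500 nM Aza group, over 10 means, the same genes were at 0.745, 0.681, 0.608, 0.518 and 0.592, so that group carries much of the likeness. Most opposite were CSTA, a cysteine protease inhibitor (-0.904, and -0.737 without that group), DNAJC10 (-0.805 and -0.481) and WARS2 (-0.748 and -0.14). With 1500 nM Aza, SELENOP was at -1.37 log2 from DMSO, SAT1 at -1.29 and UTRN at -1.13, and CSTA at 1.57. The points are group means of 2 to 4 arrays that share a platform and normalization, and they are not independent.

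**Figure D4:**
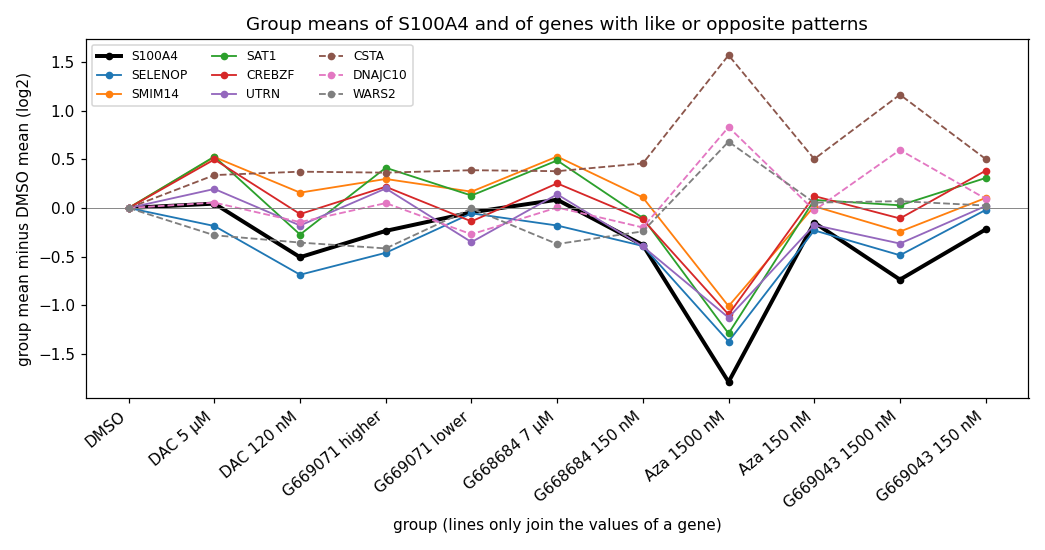
Group mean minus DMSO mean (y axis, log2) for S100A4, the 5 genes most like it and the 3 most opposite, over the 11 groups (x axis). Each line is a gene. The 1500 nM Aza group holds the extreme of S100A4 (-1.78), of SELENOP (-1.37) and, on the other side, of CSTA (1.57).

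Among the S100 genes themselves, S100A2 and S100A6 had the most similar group means (r = 0.969 over 11 means), followed by S100A10 and S100A11 (0.964), as a description. S100A4 was at -0.02 with S100A2, 0.41 with S100A3, 0.60 with S100A13 and -0.85 with S100A16. Without the 1500 nM Aza group these were 0.19, 0.29, 0.34 and -0.33.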

How the data were processed

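HCT116 cells were treated for 72 h, and RNA was measured on 24 arrays in 11 groups, taken from the sample titles. Per the submitters' processing notes, the authors ran RMA in Affymetrix Expression Console 1.1, and the deposited values are linear intensities. The table holds 54675 probe sets, and log2 was taken here. RMA makes array distributions alike, so a shift shared by all genes would not be seen. No genome build is named in the labels. Genes were named from the probe annotation, which has 41091 probe sets of 1 symbol.

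Probe sets that reached 5 log2 on at least 2 arrays were kept, and a gene was represented by its kept probe set with the highest mean. A mean per group was fitted with limma 3.58.1 in R 4.3.3 (lmFit, eBayes with a trend, 13 residual and 6.14 prior degrees of freedom) over 17 comparisons. Calls are 2-sided at a Benjamini-Hochberg adjusted p under 0.05 over all 18055 genes. The fit was tested on simulated data. Alternatives were another choice of probe sets, no filter, requantiled or centred arrays, no trend, fewer groups, each array left out, a replicate block and each DMSO pair. Tables and figures used Python 3.11.15, pandas 2.3.3 and matplotlib 3.10.9.

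The 10 genes and the gene lists were chosen with earlier results of these data known. All 10 were named, and from the lists of other S100 genes, binding partners and receptors at most the 4 called genes of largest change per comparison, with the 5 genes most like and 3 most opposite to S100A4.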

Additional observations from a re-analysis of the deposited data

Results flagged for a closer look

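In the DMSO group, S100A4 had 1 array apart from the other 3: it read 11.16 against 11.31 to 11.33 log2, and the gap over the whole range was 0.882, above Dixon's critical value of 0.829 for 4 samples. The 10 genes were examined and this was the only flag, where chance flags about 1 in 20 groups. It concerns the spread within DMSO, not a difference between groups. The S100A4 arrays of the G668684 doses also lay on opposite sides of the DMSO arrays. With 7 µM both lay above every DMSO array, but only slightly. The mean difference was 0.085 log2 (95% interval -0.06 to 0.23), so a rise at this dose is not shown. With 150 nM both arrays lay below every DMSO array (-0.38 log2, 95% interval -0.53 to -0.23). The difference between these doses was not tested.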

How the results depend on the processing

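No call reversed under the alternatives run. Of the counts of called S100 genes, 207 stayed within 1.5 times under an alternative, 30 fell further and 7 rose further. Of the single values, 2174 were counted as unchanged, 112 lost their call and 43 gained one. For the tested genes, unchanged means the same direction and side of the threshold. S100A4 has no call to keep, so its values were counted as unchanged when they moved by less than 1 SD, whatever their sign. Its difference with 5 µM DAC, 0.045 log2, ran from -0.02 to 0.085 and was counted so. Another 79, called in neither setting, changed sign or went to 0, and 15 values of S100A4, which was not tested, moved by 1 SD or more. For 150 nM Aza (3 genes) the count was 1 with centred arrays, 1 with no trend, 0 with only the groups compared and 5 against DMSO replicates 3 and 4. For 150 nM G669043 (2) it was 1 with the mean of probe sets or centred arrays, 0 without _x_at and _s_at probe sets, requantiled, with no trend or with only the groups compared, 4 against DMSO replicates 1 and 2, and 1 against 3 and 4. With only the groups compared it was 4 for 120 nM DAC (7), 1 for 1500 nM G669043 (4), 1 between the doses of DAC (4), 7 between those of Aza (4), and 1 for G669043 against Aza at 150 nM (0). The mean of probe sets gave 2 for 1500 nM G669043. Between the Aza doses it gave 2, as did centred arrays and no trend, and requantiling gave 2 between the doses of G669043 (1). Leaving out 1 array gave 1 to 4 for 150 nM Aza, 0 to 3 for 150 nM G669043, 0 to 1 between the Aza doses and 3 to 5 between the G669071 doses (5). S100A4 has no value without _s_at probe sets.

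Replicate numbers did not pair the samples in a uniform way. Over 55 pairs of groups the correlation of deviations ran from -0.393 to 0.612 (median 0.016), and 20 exceeded 0.1. Some groups thus shared deviations, and their source was not tested. With the replicate block, in which DMSO replicates 3 and 4 have no partner and carry no weight, the count was 4 for 150 nM G669043 and 1 for G669043 against Aza at 1500 nM, and it stayed within 1.5 times for the other comparisons.

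With 2 arrays in each treated group, a difference between groups of 2 had a median 95% half-width of 0.24 log2 over all genes. The table holds no detection calls, so signal over background is unknown. The causes of these changes were not tested.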
